A study of Mus musculus with 4 samples.

Results

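The genes of the proteasome were examined in testes of *Nef-sp*-/- and *Nef-sp*+/- mice. Members were all features counted on the sense strand of gene exons whose symbol starts with Psma, Psmb, Psmc, Psmd, Psme, Psmf or Psmg, without *Psmc3ip*, a recombination factor that only shares the prefix. This gave 43 genes among the 12415 exon sense features. The rule used names alone and no measured value, although it was chosen with earlier results of these data known.

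Total RNA of whole testis from adult mice at postnatal day 60, on a C57Bl/6J background, was depleted of ribosomal RNA and sequenced in 4 strand-specific libraries, 2 per genotype. The mutant allele of *Nef-sp*, a gene for a testis RNA exonuclease that is annotated as *2610020H08Rik* on chromosome 7, carries a 23 bp out-of-frame deletion made by injecting Cas9 nickase mRNA and a pair of guide RNAs into embryos. The *Nef-sp*-/- testes carry this deletion on both alleles, and the *Nef-sp*+/- controls carry it on 1 allele, so that no wild-type testis entered the comparison. They are called mutants and controls. The deletion is constitutive and therefore present in all cell types of the testis. Whole testis is a mixture of germ cells and somatic cells, and in such bulk RNA fewer cells of a type and less RNA per cell cannot be told apart. Nothing in the labels says whether the 2 libraries of a genotype came from separate animals, so the p-values measure the spread between these libraries.

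The proteasome is the protease that degrades ubiquitin-tagged proteins in the cytosol and nucleus. Its barrel-shaped core particle is built from outer rings of alpha subunits, which gate the entry, and inner rings of beta subunits, of which some hold the active sites. A regulatory particle sits on the barrel. Its base contains a ring of ATPases that unfold the substrate, and its lid removes the ubiquitin chain. Other caps can replace the regulatory particle, among them PSME4, which in the testis is known for a part in histone removal during spermatid maturation. Assembly chaperones put the rings together but are not part of the finished particle. In spermatogenesis, proteasomes are needed for meiosis and for the replacement of histones and cytoplasm in spermatids.

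Sequences of the promoters, from 250 bases before to 50 bases after the annotated start, were available for 36 of the 43 genes from RefSeq on GRCm38.p6, a later build than the mm9 build of the counts. The ETS motif, written CCGGAAG and searched on both strands, is shown for the 5 genes with the highest exon levels among those that hold it. It was found in the promoters of 14 of the 36 genes, or 38.9%. Among single promoters, it was found in 8.86% of all 32851 available and in 17.5% of the 9336 of genes that passed the expression filter. A gene counted once if any of its annotated promoters had a match, while each promoter counted singly in the other shares. This difference in unit holds for the motifs below as well, and gives genes with several promoters more chances of a match. In the following windows the motif, or its reverse complement CTTCCGG, is in capitals. Each window is written 5′ to 3′ on the strand of its gene.
*Psma6*, chr12:55398683-55398709, plus strand: gagccaccacCCGGAAGcccgcggacc
*Psma6*, chr12:55398813-55398839, plus strand: cgccggtgctCCGGAAGcagtagccat
*Psma6*, chr12:55398832-55398858, plus strand: gtagccataaCTTCCGGgagggggctt
*Psmd2*, chr16:20651616-20651642, plus strand: ccgcagggcgCTTCCGGtctggaggac
*Psme4*, chr11:30771712-30771738, plus strand: tggccccgccCCGGAAGtgacttgagg
*Psmc2*, chr5:21786713-21786739, plus strand: cgcggagctaCTTCCGGtggggaagag
*Psmd4*, chr3:95042723-95042749, minus strand: tacagctgttCCGGAAGctgctgcgaa
Both *Psma6* and *Psmc2* have more than 1 annotated promoter. The 3 copies in *Psma6* lie in the same promoter, and a *Psma6* promoter further upstream held no match. Of the 2 windows of *Psmc2*, 1 is shown. The other promoters with a match were those of *Psmc1*, *Psmc6*, *Psmd6*, *Psmd11*, *Psmd12*, *Psmd13*, *Psme3*, *Psmg1* and *Psmg3*.

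The core of the antioxidant response element, written TGACNNNGC and searched on both strands, is the motif bound by the transcription factor NFE2L1, which is known to raise proteasome genes when proteasomes are inhibited. It was found in promoters of 6 of the 36 genes, or 16.7%, against 12.39% of all promoters and 14.17% of those of genes past the filter. The genes were *Psmb5*, *Psmb6*, *Psmc6*, *Psmd9*, *Psmd12* and *Psme4*. The windows of the catalytic subunit genes and of *Psme4* read as follows, with the motif or its reverse complement GCNNNGTCA in capitals.
*Psmb5*, chr14:54618024-54618052, minus strand: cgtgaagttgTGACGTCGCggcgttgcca
*Psmb6*, chr11:70525338-70525366, plus strand: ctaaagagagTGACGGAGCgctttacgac
*Psme4*, chr11:30771758-30771786, plus strand: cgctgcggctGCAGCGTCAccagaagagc
The CCAAT box, searched as CCAAT on both strands, was found in promoters of 12 of the 36 genes, or 33.3%. It was found in 37.41% of all promoters and in 38.36% of those of genes past the filter. The cAMP response element TGACGTCA was found in promoters of 0 of the 36 genes. It was found in 1.79% of all promoters and in 3.23% of those of genes past the filter. None of these motifs overlaps another in the windows shown, and a match of letters does not show that a factor binds there. Genes with the ETS motif had a median level of 49.7 RPKM (reads per kb of exon, scaled to the effective number of exon sense reads in the library), and the 22 genes without it had one of 27.0. The corresponding medians were 40.9 with and 30.1 without the antioxidant response element core, and 30.1 with and 34.2 without the CCAAT box. These are given as descriptions.

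The libraries held between 20659865 and 34442517 reads in all, of which 15815159 to 26618821 were exon sense reads. The *2610020H08Rik* gene had normalised read counts of 1843 and 1693 in the controls and of 407 and 497 in the mutants, a log2 fold change of −1.97 (SE 0.09) with an adjusted p of 4.1e-06 by edgeR's quasi-likelihood test. A normalised read count is the count divided by the relative effective size of its library. Of the markers fixed for the testis, summed CPM of 8 spermatid genes lay between 17734 and 22077, those of 6 spermatocyte genes between 1029 and 1159, and that of epididymal genes at 0.31 in 1 library and at 0 in the others. The lowest spermatid sum was that of *Nef-sp*+/- replicate 1. Of the 8 spermatid genes, 7 had a log2 fold change above 0 and 1 below, with a median of 0.12. *Tnp1* was higher in mutants by 0.18 on the log2 scale, with an unadjusted edgeR p of 0.038 and an adjusted p of 0.954. The summed Leydig cell markers were 974 and 987 CPM in controls and 924 and 781 in mutants. Of the 6 Leydig genes, the steroidogenic enzyme genes *Cyp11a1* and *Cyp17a1* had an unadjusted edgeR p below 0.05, against 4.8% of all features tested. *Cyp11a1* and *Cyp17a1* were lower, by −0.35 (adjusted p = 0.859 by edgeR) and −0.27 (adjusted p = 0.954 by edgeR) on the log2 scale. *Hsd17b3* was lower by −0.19 (adjusted p = 0.954 by edgeR). In each of these genes both mutant values were below both control values, as in 18.1% of all features tested. *Insl3*, *Star* and *Hsd3b6* had log2 fold changes of 0.18, 0.08 and 0.01. *Cyp17a1* made up most of the sum, with 427 to 570 CPM.

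All 43 proteasome genes passed the expression filter, with raw counts from 10 to 33082 per library. Together they took 0.615% and 0.591% of the exon sense reads in the controls and 0.593% and 0.604% in the mutants. The 4 values interleave, with both mutant shares between the 2 control shares. The Wilson 95% interval, which covers counting error only, was 0.611% to 0.619% for the library with the highest share and 0.588% to 0.594% for that with the lowest. The means were 0.603% ± 0.0171 and 0.599% ± 0.00781 (SD, n = 2 each), and the exact two-sided permutation p was 1.0, where the smallest p that 2 libraries against 2 allow is 0.33.

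Expression differed far more between the genes than between the libraries. Levels per length, in RPKM, ran from 0.905 for *Psme2* to 424 for *Psma6*, a 469-fold range. The standard deviation of the log2 level was 2.06 between the 43 genes, while the median gene varied between the 4 libraries by 0.06 on the same scale. The median level was 34.3, against 8.32 over the 9963 genes past the filter with an annotated exon length, and 37 of the 43 genes were above the latter value. A few genes made up most of the signal. *Psme4* took 21.1% of all proteasome reads, *Psmc3* 12.9%, *Psmd2* 10.4%, *Psma6* 8.10% and *Psmd8* 6.85%, so that these 5 genes took 59.4%. The plot of levels by library shows this spread within each part of the particle.

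**Figure D1:**
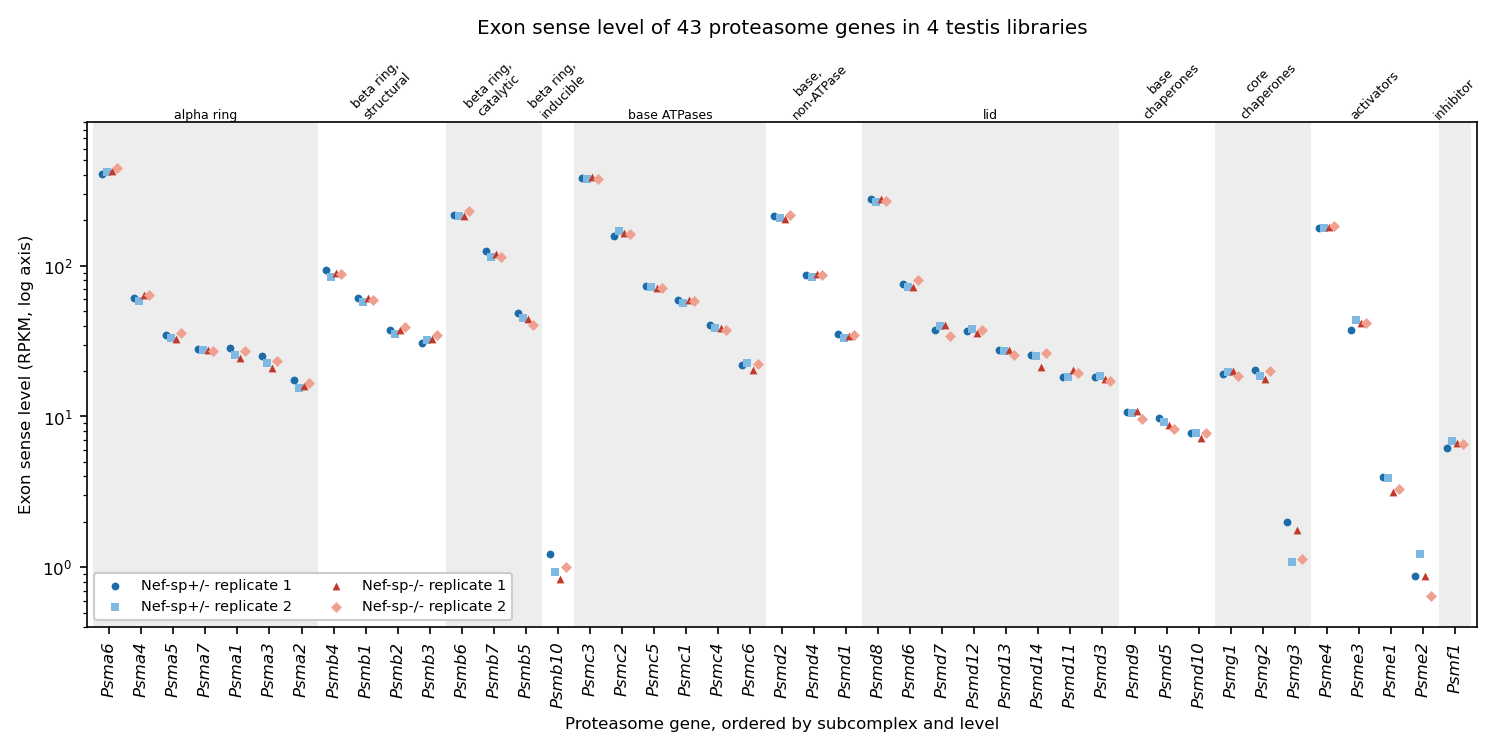
Each column is 1 of the 43 proteasome genes, grouped by part of the particle, and each point is the exon sense level in 1 of the 4 libraries, in RPKM on a log axis. Levels run from 0.905 (*Psme2*) to 424 (*Psma6*), and within most columns the 4 libraries lie close together, with *Psmb10*, *Psmg3* and *Psme2* spread most widely.

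In the alpha ring, *Psma6* stood apart from the other 6 genes. In mm9 it lies on the plus strand of chromosome 12 from 56485209 to 56519441, with 8 merged exons. Its RPKM was 405 and 422 in controls and 423 and 447 in mutants. The next gene, *Psma4*, was at 61.6 and 58.8 in controls and at 63.7 and 63.9 in mutants. The remaining genes, *Psma5*, *Psma7*, *Psma1*, *Psma3* and *Psma2*, had mean levels from 34.0 down to 16.4 RPKM, so that genes whose products stand in equal number in the ring differed 25.9-fold in reads per length. The neighbours *Psma7* and *Psma1* did not separate, since the 4 values of *Psma7* (27.3 to 28.1) lay within those of *Psma1* (24.3 to 28.6). *Psma8*, the alpha subunit gene of spermatocytes and spermatids, was not analysed here. *Psma6* differed between genotypes by 0.07 on the log2 scale (SE 0.06, adjusted p = 0.954) and *Psma7* by −0.02 (SE 0.08, adjusted p = 0.990). In both *Psma4* and *Psma6*, the 2 mutant values were above the 2 control values, as in 16.4% of all features tested. Of the 50-base windows within *Psma4* exons, however, 32.2% occur elsewhere in the genome.

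The catalytic beta subunits carry the caspase-like (*Psmb6*), trypsin-like (*Psmb7*) and chymotrypsin-like (*Psmb5*) activities. *Psmb6* was the highest of them, with an RPKM of 217 and 213 in controls and of 213 and 232 in mutants. *Psmb7* followed with 125 and 114 in controls and 119 and 115 in mutants. *Psmb5* was the lowest, with 48.3 and 45.3 in controls and 44.2 and 40.7 in mutants. The order of the 3 genes was the same in all 4 libraries. Both mutant values of *Psmb5* were below both control values, as in 18.1% of all features tested, and its log2 fold change of −0.14 (SE 0.07) had the smallest unadjusted p of all proteasome genes, 0.092, with an adjusted p of 0.954. Within its exons, 54.8% of 50-base windows have another match in the genome. The log2 fold changes of *Psmb6* and *Psmb7* were 0.05 (SE 0.06, adjusted p = 0.956) and −0.02 (SE 0.07, adjusted p = 0.989).

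*Psmb10*, whose product replaces PSMB7 in the immunoproteasome of interferon-stimulated and lymphoid cells, was near the bottom of the range. Its levels were 1.22 and 0.923 RPKM in controls and 0.830 and 1.0 in mutants, so that the genotypes overlapped. The raw counts behind these were 25, 31, 17 and 20 reads. Its log2 fold change was −0.18 (SE 0.29, adjusted p = 0.966), with a 95% interval from −0.83 to 0.46. The log2 ratio of *Psmb10* to *Psmb7* reads was −6.55 and −6.81 in controls and −7.03 and −6.72 in mutants, a difference of −0.20 with an exact permutation p of 0.667. It was −0.063 without *Nef-sp*+/- replicate 1, −0.33 without *Nef-sp*+/- replicate 2, −0.036 without *Nef-sp*-/- replicate 1 and −0.36 without *Nef-sp*-/- replicate 2. The other inducible catalytic genes were not analysed here. The 4 structural beta genes, *Psmb1*, *Psmb2*, *Psmb3* and *Psmb4*, had mean levels from 32.5 to 89.0 RPKM and log2 fold changes from 0.01 to 0.11, the largest for *Psmb3*, in which 57.0% of the windows are repeated in the genome.

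The base of the regulatory particle had 6 ATPase genes whose products form a ring with 1 copy each. *Psmc3* was the highest at 382 and 375 RPKM in controls and 387 and 374 in mutants, and *Psmc6* the lowest with a mean of 21.8, a 17.4-fold span. Between them came *Psmc2* (165), *Psmc5* (72.1), *Psmc1* (58.3) and *Psmc4* (38.7), as means of the 4 libraries. Their log2 fold changes were between −0.07 and 0.02. *Psmc3* differed by 0.01 (SE 0.06, adjusted p = 0.990). The non-ATPase scaffold genes of the base, *Psmd2* and *Psmd1*, had mean levels of 211 and 34.3 RPKM, and the ubiquitin receptor gene *Psmd4* had one of 86.6.

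In the lid, *Psmd8* led with 278 and 267 RPKM in controls and 277 and 269 in mutants, and its log2 fold change was 0.004 (SE 0.06, adjusted p = 0.997). The mean of the deubiquitinase gene *Psmd14* was 24.6 RPKM and that of *Psmd3*, the lowest, 17.9. *Psmd11*, a lid scaffold gene, had the largest upward log2 fold change of all 43 genes, 0.12 (SE 0.06, adjusted p = 0.954 by edgeR). Its normalised read counts were 1038 and 1029 in controls and 1149 and 1095 in mutants. Both mutant values were above both control values, as in 16.4% of all features tested. Within *Psmd11* exons, 14.5% of 50-base windows have another match in the genome. Summed over genes, the log2 ratio of lid to ATPase reads was −0.62 and −0.64 in controls and −0.64 and −0.62 in mutants. It differed between genotypes by −0.003, with an exact permutation p of 1.0.

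Genes of the assembly chaperones were lower than most subunit genes. The base chaperones *Psmd9*, *Psmd5* and *Psmd10* had mean levels of 10.4, 9.04 and 7.63 RPKM, and the core chaperones *Psmg1*, *Psmg2* and *Psmg3* had 19.3, 19.2 and 1.49. *Psmd5* had normalised read counts of 369 and 348 in controls and of 333 and 310 in mutants. Both mutant values were below both control values, as in 18.1% of all features tested. The log2 fold change of *Psmd5* was −0.15 (SE 0.09, adjusted p = 0.954 by edgeR). The summed share of the 3 base chaperones was 0.00604% and 0.00571% of exon sense reads in controls and 0.00560% and 0.00527% in mutants. This was the only one of the 12 shares compared, the whole set and 11 groups, without overlap between genotypes, and its exact permutation p was 0.33, or 1.0 after adjustment over the 12. *Psmg3* had the widest interval of all 43 genes, with normalised read counts of 31.1 and 16.9 in controls and 27.7 and 17.7 in mutants, and a log2 fold change of 0.02 (SE 0.36, adjusted p = 0.997) whose 95% interval ran from −0.78 to 0.82.

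**Figure D2:**
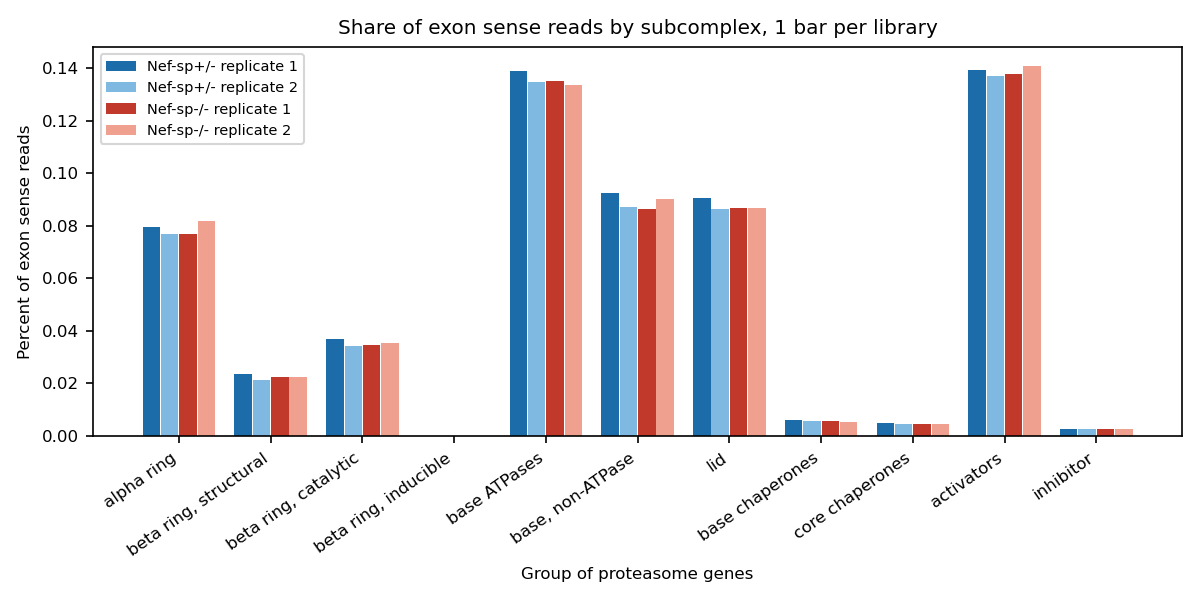
Bars give the percent of exon sense reads taken by each group of proteasome genes, with 1 bar per library, blue for *Nef-sp*+/- and red for *Nef-sp*-/-. The ATPase and activator groups take the most reads, and in all groups but the base chaperones the libraries of the 2 genotypes overlap; the share of the inducible beta gene is too small to be seen.

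The activators, which open the core in place of the regulatory particle, differed widely in level. *Psme4* was at 178 and 178 RPKM in controls and at 182 and 185 in mutants, with a log2 fold change of 0.04 (SE 0.06, adjusted p = 0.957). Its 49 merged exons lie on the plus strand of chromosome 11, from 30671726 to 30780361 in mm9. *Psme3*, the nuclear cap gene, was at 37.5 and 43.6 in controls and at 41.9 and 41.5 in mutants, with a log2 fold change of 0.04 (SE 0.07, adjusted p = 0.977). The interferon-inducible genes *Psme1* and *Psme2*, whose products form 1 cap together, were far lower. *Psme1* had 3.94 and 3.91 RPKM in controls and 3.16 and 3.28 in mutants. *Psme2* had 0.876 and 1.22 in controls and 0.879 and 0.643 in mutants. Mean levels within this group thus spanned 199.7-fold.

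*Psme1* and *Psme2* had the largest log2 fold changes of the 43 genes in the edgeR fit of all 4 libraries. *Psme1* differed by −0.28 (SE 0.16, adjusted p = 0.954 by edgeR). Both mutant values of *Psme1* were below both control values, as in 18.1% of all features tested. *Psme2* differed by −0.51 (SE 0.35, adjusted p = 0.954) with overlap, and its 95% interval ran from −1.28 to 0.25. The *Psme2* value was −0.68 without *Nef-sp*+/- replicate 1 and −0.20 without *Nef-sp*+/- replicate 2. It was −0.75 without *Nef-sp*-/- replicate 1 and −0.30 without *Nef-sp*-/- replicate 2. That of *Psme1* stayed between −0.31 and −0.26 as each library was left out. Without *Nef-sp*+/- replicate 2, *Psmg3* (−0.44) and *Psmb10* (−0.41) were further from 0 than both. Without *Nef-sp*-/- replicate 2, *Psmb10* (−0.317) was further from 0 than *Psme1* (−0.310) and *Psme2* (−0.304). *Psmg3* was 0.43 without *Nef-sp*+/- replicate 1 and −0.34 without *Nef-sp*-/- replicate 1. These values were further from 0 than those of *Psme1* but not than those of *Psme2*. In DESeq2 with its prior, on all 4 libraries, *Psme1* became −0.053 and *Psme2* −0.022. Among the genes given full values, *Psmb5* (−0.078), *Psmd11* (0.077), *Psmd5* (−0.067) and *Psma6* (0.059) were further from 0 there than both. The log2 ratio of the summed reads of *Psme1* and *Psme2* to those of *Psme4* was −7.77 and −7.69 in controls and −8.06 and −8.11 in mutants. The difference of −0.36 had an exact permutation p of 0.33, the smallest possible, and an adjusted p of 1.0 over the 3 ratios. Markers of macrophages and leukocytes, cells that express *Psme1* and *Psme2* strongly, had a summed CPM of 22.6 and 23.1 in controls and of 20.6 and 21.0 in mutants. Most of this sum was *Lyz2*, at 17.8 and 17.9 CPM in controls and 15.6 and 16.4 in mutants, whereas *Csf1r* and *Emr1* overlapped between genotypes. Of the 6 markers 5 had a row, 3 were tested and 0 had an unadjusted p below 0.05, and their part in the *Psme1* and *Psme2* values was not tested. Of the *Psme2* windows, 44.7% are repeated in the genome. The inhibitor gene *Psmf1* was at 6.21 and 6.90 RPKM in controls and at 6.69 and 6.54 in mutants.

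Over the whole set, 0 of the 43 genes had an adjusted p below 0.05 by edgeR's quasi-likelihood test, where the background was 0.00932% of the 10728 features tested. DESeq2 also called 0 of them. At an unadjusted p below 0.05 the count was again 0, against a background of 4.8%. The smallest unadjusted values, those of *Psmb5*, *Psmd11*, *Psme1*, *Psmd5* and *Psme2*, ran from 0.092 to 0.169. Log2 fold changes ran from −0.51 to 0.12, 19 above 0 and 24 below. Their median was −0.02, against −0.0002 over all features tested, and the median absolute value was 0.04, against 0.07. For 35 genes the log2 fold change was within 0.1 of 0.

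The intervals show how large a difference these libraries leave room for. All 43 of the 95% intervals included 0. For 39 genes the interval lay within 0.5 of 0 on the log2 scale, and the exceptions were *Psmb10*, *Psmg3*, *Psme1* and *Psme2*, which are also the lowest genes per kb. The median coefficient of variation between the 2 libraries of a genotype was 3.26% in controls and 3.60% in mutants.

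Without overlap between genotypes, 5 genes were higher in mutants (*Psma4*, *Psma6*, *Psmb3*, *Psmd11* and *Psme4*), where the background was 16.4%, and 5 were lower (*Psmb5*, *Psmc5*, *Psmd3*, *Psmd5* and *Psme1*), where it was 18.1%. These genes were spread over the core, base, lid, chaperones and activators, and in no group did all genes separate in 1 direction.

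**Figure D3:**
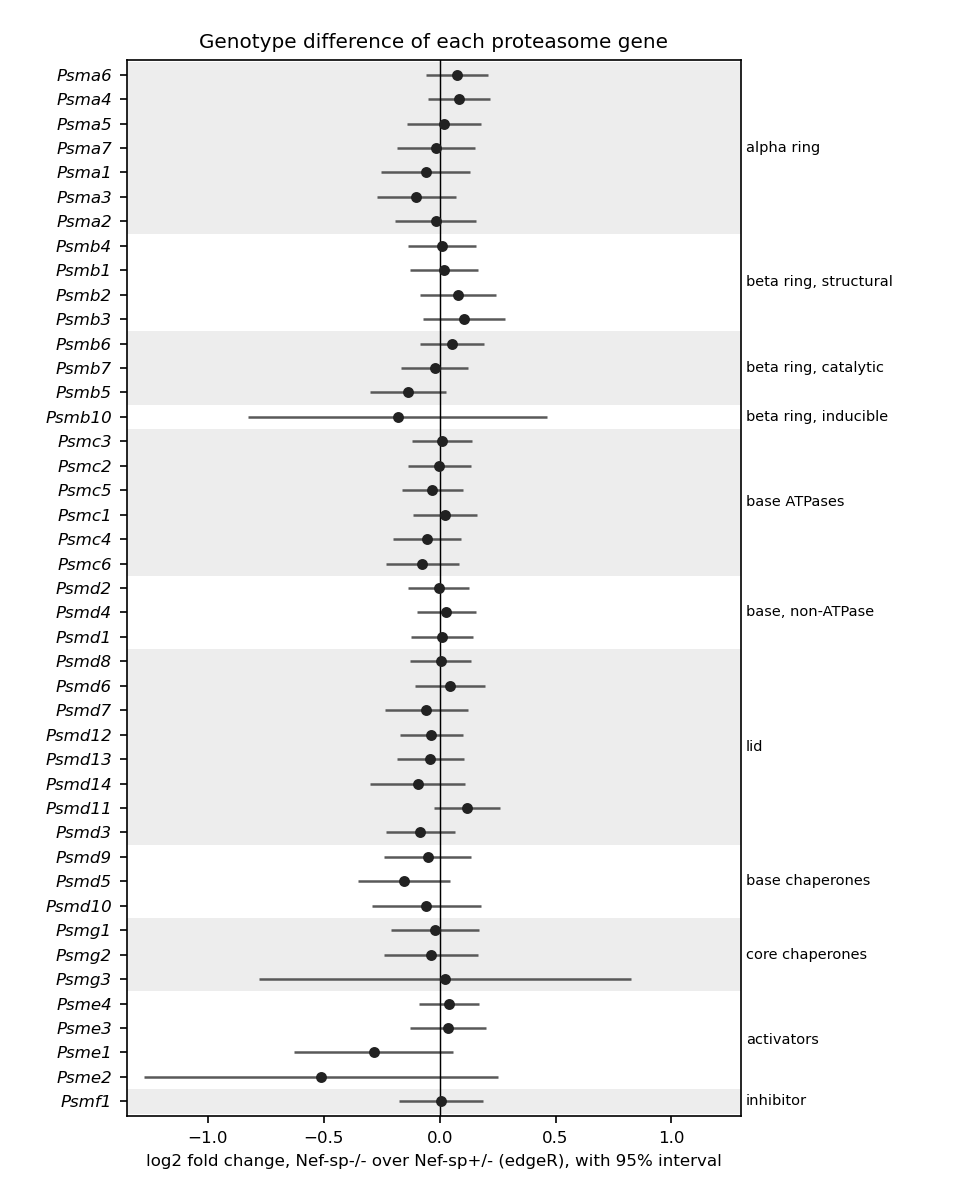
Points give the log2 fold change of exon sense reads in *Nef-sp*-/- over *Nef-sp*+/- for each proteasome gene and lines its 95% interval from edgeR, with genes grouped by part of the particle. All 43 intervals cross 0, and the widest are those of *Psmg3*, *Psme2*, *Psmb10* and *Psme1*, the genes with the fewest reads per kb.

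Many proteasome genes have processed pseudogenes, whose sequence is close to the mRNA. Windows of 50 bases were taken within each merged exon of the coding transcripts, so that windows across exon junctions were not examined. No such window was repeated in the genome for 25 of the 43 genes, while more than 10% of windows were repeated for 10 genes. These 10 were *Psma3*, *Psma4*, *Psma5*, *Psmb3*, *Psmb5*, *Psmb7*, *Psmc1*, *Psmd2*, *Psmd11* and *Psme2*. How reads with several matches were counted is not given in the sources used here, so the values of those 10 genes are uncertain. For the 29 genes with under 1% of repeated windows, the median log2 fold change was −0.02 and 0 had an unadjusted p below 0.05.

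Reads on the sense strand of introns come from unspliced RNA or from other transcripts inside the intron. Of the 43 genes, 28 had an intron sense row and 10 of these passed the filter. Adjusted p was below 0.05 for 0 of the 10, where the background was 0.0294% of 3403 features, and unadjusted p for 0, against 2.35%. *Psmd13*, a lid subunit gene, differed from all others in this category. Its intron reads amounted to 99.6% of its exon reads, against 0.017% to 4.48% (median 0.40%) in the other 27 genes. They were 73.5% of all intron sense reads of proteasome genes. Normalised intron read counts of *Psmd13* were 1203 and 1289 in controls and 1253 and 1159 in mutants, with overlap, a log2 fold change of −0.05 and an unadjusted edgeR p of 0.724. Among the 6261 genes with both kinds of row whose exon row passed the filter, 98.1% had a lower ratio of intron to exon reads.

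**Figure D4:**
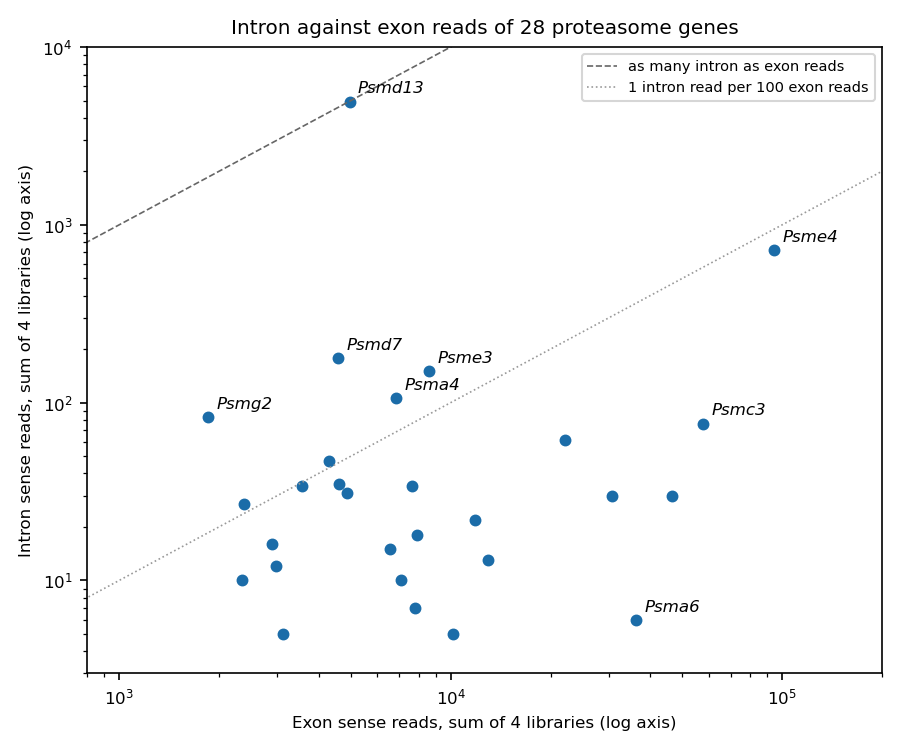
Each point is 1 of the 28 proteasome genes with an intron sense row, with exon sense reads on the x axis and intron sense reads on the y axis, both summed over the 4 libraries on log axes. *Psmd13* lies near the dashed line of equal reads, while the other 27 genes lie between 0.017% and 4.48% of their exon reads.

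In mm9, *Psmd13* (ENSMUSG00000025487) lies on the plus strand of chromosome 7 from 148067867 to 148084542. The intron between the exon that ends at 148076519 and the exon that starts at 148080380 contains the pseudogene *Gm15542*, on the same strand, from 148076786 to 148077979. Of its 1145 windows of 50 bases, 77.9% occur elsewhere in the genome and 877 occur in transcripts of *Dnaja1*, a gene for a cytosolic chaperone of the DNAJ family. The longest run that it shares with the spliced coding sequence of *Dnaja1* has 650 bases. A read of 50 bases within this run matches the pseudogene and the *Dnaja1* coding sequence. Reads were aligned to the genome, and how many of them would span an exon junction of *Dnaja1* was not examined. The first 30 bases of the run are the following.
*Gm15542*, chr7:148076912-148076941 of mm9, plus strand: gaaaagtttaaacagatttctcaagcttat
*Dnaja1* itself had normalised exon read counts of 2495 and 2365 in controls and 2426 and 2370 in mutants, a log2 fold change of −0.02. From which of these places the *Psmd13* intron reads came was not tested.

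On the antisense strand of exons, 3 proteasome genes had a row and *Psmd2* and *Psmd7* passed the filter. Of these, 0 had an adjusted p below 0.05, where the background was 0.0%, and 0 an unadjusted p below 0.05, against 2.98%. *Psmd7* had normalised antisense counts of 41.9 and 35.4 in controls and 29.1 and 28.5 in mutants, a log2 fold change of −0.40 with an unadjusted p of 0.145 by edgeR. On the antisense strand of introns, 5 genes had a row with 11 to 25 reads in all, and 0 passed the filter.

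Genes that work with the proteasome but lie outside the naming rule were counted in 5 lists of 52 genes: partners and cofactors, shuttles and the segregase, ubiquitin and its activating enzymes, transcription factors, and class I antigen presentation. Of these, 45 had a row and 41 passed the filter, and 0 had an adjusted p below 0.05, where the background was 0.00932%. At an unadjusted p below 0.05, 1 of the 41 genes was higher in mutants and 0 were lower, which is no larger a share than the 4.8% over all features. The gene was *Ubqlnl*, a member of the ubiquilin family, which carry ubiquitinated proteins to the proteasome. Its normalised read counts were 8915 and 11418 in controls and 12051 and 11741 in mutants, a log2 fold change of 0.23 (SE 0.10, adjusted p = 0.954 by edgeR). The low value was that of *Nef-sp*+/- replicate 1, the library with the lowest sum of spermatid markers, whose part in it was not tested. The median log2 fold change was −0.01 for the partners, −0.01 for the shuttles, 0.04 for ubiquitin and its enzymes, 0.03 for the transcription factors and −0.03 for class I presentation.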

How the data were processed

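Per the labels, total RNA of 4 testes samples was made into stranded libraries and sequenced for 50 cycles. After adapter removal, the authors aligned reads to mm9 with software of their own, retained perfect matches only, and deposited raw read counts by feature, annotation category and strand. Tool versions, and how multi-matching reads were handled, are not given in the sources used here. The authors also deposited a mean normalised signal and, from their own DESeq2 comparison, a log2 fold change with p-values, none of which was used.

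Counts were tested by the quasi-likelihood method of edgeR (version 4.0.16, R 4.3.3), with TMM, filterByExpr (minimum count 10), no covariates, and Benjamini-Hochberg adjustment over each annotation category. Adjusted p below 0.05 was the threshold. Shares and ratios were compared by exact two-sided permutation tests. Of the ratios planned, 3 could be computed and p was adjusted over these. Levels (RPKM) were computed here from counts, effective exon sense library sizes and exon lengths, which are merged exons of coding transcripts in GENCODE vM1. Wilson intervals are at 95%. The fit was tested on simulated data. Alternatives included DESeq2 1.42.0. Figures used matplotlib 3.10.9.

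Members and lists were chosen with earlier results of these data known. Full values are given for the 5 genes with the smallest p, the 5 with the largest change, the 3 highest and 3 lowest per kb, the catalytic, inducible and activator genes, and *Psma7*. Other genes were named as the leading, lowest or neighbouring gene of a group, or without overlap, after their values were seen.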

Additional observations from a re-analysis of the deposited data

How the results depend on the processing

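Under 13 alternatives to the exon sense test, 0 of the 43 proteasome genes were called. In the intron sense and exon antisense categories 0 members were called under 11 alternatives each. Without *Nef-sp*+/- replicate 2, *Psma3* had an unadjusted p of 0.0486 and an adjusted p of 0.521 by edgeR, and without *Nef-sp*-/- replicate 2, *Psmd14* had 0.0195 and 0.991. Without the expression filter, *Psmd4* in the intron sense category had 0.0331 and 0.996. The median log2 fold change of the members moved to −0.040 with the library size over all categories and no TMM, where that of all features was −0.023, and ran from −0.029 to 0.014 as each library was left out. With the replicate block it was −0.019 and no call changed. The labels do not say that replicate numbers pair animals, and deviations of same-numbered libraries correlated at −0.085. A replicate block with crossed numbers, chosen after earlier results were seen, called 99 exon sense features, 0 of them members. DESeq2 called 2 features. Without *Nef-sp*+/- replicate 1 or 2, edgeR called 41 or 252 features. Log2 fold changes took both signs across the alternatives for 24 of the 43 genes. Of these, the genes given full values are listed here. With the library size over all categories *Psmc3* became −0.016 and *Psmd8* −0.021, and in 1 fit over all categories they became −8.2e-05 and −0.0051. *Psmg3* became −0.043 with DESeq2, −0.0025 with its prior and −0.064 with the replicate block. Leaving out 1 library gave ranges of −0.0065 to 0.11 for *Psmb6*, −0.088 to 0.046 for *Psmb7*, −0.016 to 0.037 for *Psmc3*, −0.025 to 0.033 for *Psmd8*, −0.065 to 0.15 for *Psme3* and −0.44 to 0.43 for *Psmg3*, and the cause was not tested. Ratios with *Psma8*, *Psmb8* and *Psmb9* were not run.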

Other observations

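*Nef-sp*+/- replicate 1 had the highest normalised read count of the 4 libraries for 18 of the 43 genes and the lowest for 5, with a median log2 deviation of 0.025 from the gene's mean, against 0.0069 over all features tested. *Nef-sp*+/- replicate 2 was the highest for 8 and the lowest for 14. In *Nef-sp*-/- replicates 1 and 2, 7 and 10 genes were the highest and 13 and 11 the lowest.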
